A study of Mus musculus with 6 samples.

Results

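The genes described here are 36 members of the unfolded protein response and the integrated stress response of mouse cells. They were chosen by symbol, as sensors, transcription factors, metabolic enzymes and endoplasmic reticulum chaperones known from these pathways, and all 36 were found among the 20325 genes of the deposited table. RNA was sequenced from C3H10T1/2 cells, a multipotent mesenchymal line derived from embryos of C3H mice, at passage 10 to 15. In the knockdown group, 3 samples were given small interfering RNAs that target both Ring1a and Ring1b, while the 3 control samples had a scrambled one. Both groups were parental cells in medium with 10% fetal bovine serum. Both proteins, encoded by Ring1 and Rnf2, ubiquitinate histone H2A as part of the gene-silencing Polycomb repressive complex 1, and the comparison asked how the transcriptome changes when both are depleted. The sources used here give neither the time to harvest nor whether replicates were separate cultures, so the spread that p-values rest on may be technical. RNA came from whole cultures, in which fewer cells of a type and less RNA per cell cannot be told apart.

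The unfolded protein response starts in the endoplasmic reticulum, where the sensors PERK (Eif2ak3), IRE1 (Ern1) and Atf6 respond to misfolded protein. Atf6 and the spliced form of Xbp1, which IRE1 produces, raise transcription of chaperones and of the machinery that removes misfolded protein. PERK and related kinases phosphorylate the translation factor eIF2, which lowers protein synthesis but raises translation of Atf4. This second branch, shared with amino acid shortage and other stresses, is the integrated stress response, and Atf4 in turn raises genes for amino acid synthesis, mitochondrial folate metabolism and stress regulators. Secretory mesenchymal cells, which make large amounts of collagen, depend on the chaperone branch. Activity of these pathways lies largely in phosphorylation, splicing, cleavage and translation, and transcript levels per gene report on none of those steps directly.

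All values given for genes are the authors' median-normalized values, read here as estimated read counts and called signal below. Depth estimated from the lowest values was 23.2, 4.58 and 18.5 M reads for knockdown replicates 1, 2 and 3, and 51.8, 5.45 and 15.1 M reads for control replicates 1, 2 and 3. Each member had at least 11 estimated reads in every library, so all 36 lay above a floor of 3 reads. All 36 also passed the filter, a mean signal of at least 10, that left 12085 genes for testing. Rnf2 fell, at 129, 76.5 and 152 in the knockdowns, against 815, 829 and 799 in the controls (limma log2 fold change −2.82, SE 0.28, adjusted p = 0.00946; without knockdown replicate 2, −2.53, limma adjusted p = 1.98e-09). The Rnf2 call was lost with the replicate block (limma adjusted p = 0.102), without knockdown replicate 1 (0.0646) and without control replicate 1, 2 or 3 (0.0735, 0.0742 and 0.0852). For Ring1 the values were 162, 268 and 186 in the knockdowns, against 336, 386 and 374 in the controls, lower in 3 of 3 knockdowns, and it missed the threshold with all libraries (limma log2 fold change −0.86, SE 0.23, adjusted p = 0.104). Ring1 fell without knockdown replicate 2 (−1.06, limma adjusted p = 3.86e-06) and with a correction for transcript length (−1.05, limma adjusted p = 0.00791). The summed signal of 8 mesenchymal markers was 274688 to 391083 in the knockdowns and 334395 to 362990 in the controls, led by Col1a1, Col1a2 and Vim. None passed with all libraries, but Thy1 and Twist1 had all knockdowns above all controls (ratios 1.77 and 1.58) and Pdgfra, Pdgfrb and Vim all below (ratios 0.404, 0.712 and 0.673), and all 8 passed without knockdown replicate 2, 5 higher and 3 lower. The part of these differences in the members' values was not tested. Markers of other cell types were low: 4 epithelial markers summed to 17.1 to 38.3 in the knockdowns and 15.0 to 31.6 in the controls, 3 endothelial markers to 2.84 to 8.48 in the knockdowns and 0 to 0.903 in the controls, and 3 leukocyte markers to 7.82 to 17.0 in the knockdowns and 9.94 to 13.7 in the controls, with Cd3e at 0 in every library. The second knockdown library (replicate 2) was unlike the rest, with a Pearson correlation across genes of 0.821 to 0.867 with each of the others, and 20.6% of its signal fell on 83 ribosomal protein genes, against 5.07 to 5.81% elsewhere. The total signal of knockdown replicate 2 was 19471638, against 13115793 to 13655904 in the other libraries. Results are therefore given with and without this library.

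Of the 36 members, the folate enzyme gene Mthfd2 rose and none fell with all 6 libraries (limma on log2(signal + 1), Benjamini-Hochberg adjusted p under 0.05 over all 12085 genes). At that threshold 4.98% of all tested genes were called, 3.2% higher and 1.78% lower, so 1 call among 36 is no more than the share of all genes. At an unadjusted p under 0.05 there were 8 members, about the share of all genes (20.5%, 2473 of 12085). The median log2 fold change was 0.23 over the members and 0.01 over all genes tested. In 13 members all 3 knockdowns lay above all 3 controls, which held for 20.5% of all genes, and in 4 members they lay below, which held for 23.7% (44.3% in either direction). The remaining 19 members overlapped. Without knockdown replicate 2, 19 members rose and 3 fell, in a fit where 23.8% of all genes rose and 26.1% fell, 49.9% in total. With libraries weighted by their quality, 27 members passed, where 72.9% of all genes did, 34.9% higher and 38% lower. The Atf4 metabolic arm and the chaperone arm are described apart.

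**Figure D1:**
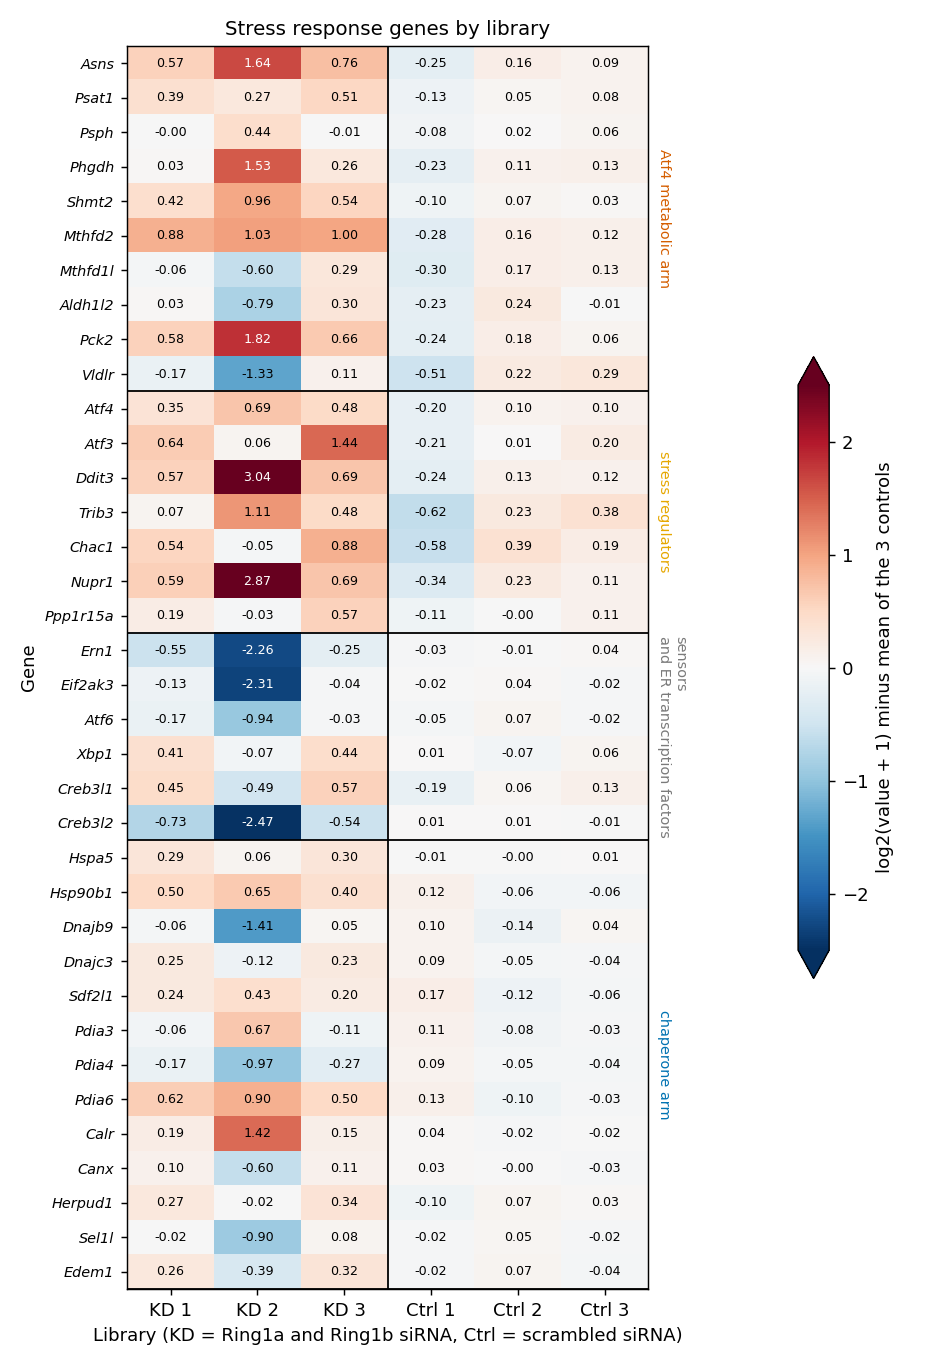
Each cell gives log2(signal + 1) of a gene in a library minus the mean of the 3 controls, for 36 genes (rows, grouped by role) and 6 libraries (columns, knockdown then control); colours stop at ±2.5. Mthfd2 is similarly high in all 3 knockdowns, whereas for most genes knockdown replicate 2 differs from replicates 1 and 3, upward in Ddit3 and Nupr1 and downward in Ern1, Eif2ak3 and Creb3l2.

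Atf4 metabolic arm. Among the 10 enzyme and receptor genes of this arm, Mthfd2 rose, and Asns, Psat1, Shmt2 and Pck2 also had all 3 knockdowns above all 3 controls. These 5 genes were those with an unadjusted p under 0.05, against 20.5% of all genes. Mthfd2 encodes a mitochondrial enzyme that oxidizes folate-bound carbon units derived from serine. Its signal was 872, 969 and 945 in knockdown replicates 1, 2 and 3, against 389, 529 and 516 in control replicates 1, 2 and 3. The knockdown values lay close together and above the highest control. The mean was 929 ± 50.4 in the knockdowns and 478 ± 77.5 in the controls (SD, n = 3 each), 1.94 times the control level (limma log2 fold change 0.97, SE 0.18, adjusted p = 0.0389). The log2 fold change without knockdown replicate 2 was 0.94 (SE 0.13, limma adjusted p = 0.000349). The call was lost in the 5 fits that left out another library, with limma adjusted p = 0.173, 0.154 and 0.184 without control replicate 1, 2 or 3 and 0.139 and 0.129 without knockdown replicate 1 or 3. Total scaling (limma adjusted p = 0.158) and the replicate number as a block (0.156) also ended it, within a range of 1.36e-06 to 0.184 over 18 alternatives.

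Shmt2, which encodes the mitochondrial enzyme that splits serine and feeds Mthfd2, had 1816, 2644 and 1983 in knockdown replicates 1, 2 and 3, against 1269, 1431 and 1386 in control replicates 1, 2 and 3. The groups did not overlap, and knockdown replicate 2 was the highest library. The log2 fold change was 0.64 (SE 0.19, limma adjusted p = 0.128), and without that library it was 0.48 (SE 0.06, limma adjusted p = 7.27e-05). A correction of each library for transcript length also put Shmt2 past the threshold (0.51, limma adjusted p = 0.0375). Asns, the gene of asparagine synthetase, had 1412, 2972 and 1609 in knockdown replicates 1, 2 and 3, against 800.2, 1059.9 and 1014 in control replicates 1, 2 and 3. Its knockdown values were all above the controls, with knockdown replicate 2 well above the other knockdowns. The mean was 2.09-fold higher with all libraries and 1.58-fold higher with knockdown replicates 1 and 3 alone (limma log2 fold change 0.99, SE 0.32, adjusted p = 0.16; without knockdown replicate 2, 0.66, SE 0.12, limma adjusted p = 0.00319).

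Pck2, the mitochondrial enzyme that converts oxaloacetate to phosphoenolpyruvate, had 1965, 4637 and 2070.0 in knockdown replicates 1, 2 and 3, against 1111, 1480.3 and 1369 in control replicates 1, 2 and 3. All knockdowns were above all controls, and knockdown replicate 2 exceeded the other knockdowns by 1.20 log2 units. The log2 fold change was 1.02 (limma adjusted p = 0.199), and 0.62 without that library (limma adjusted p = 0.00224). Phgdh, Psat1 and Psph encode the successive enzymes of serine synthesis. Psat1 had 2798, 2572 and 3032 in the knockdowns, against 1941, 2208 and 2257 in the controls, with no overlap (log2 fold change 0.39, limma adjusted p = 0.212; without knockdown replicate 2, 0.45, limma adjusted p = 0.000241). Its difference was 1.31-fold with all libraries, less than for Mthfd2. Phgdh had 2134, 6067 and 2505 in the knockdowns, against 1783, 2260.2 and 2289 in the controls. It was high in knockdown replicate 2, while replicates 1 and 3 lay within or just above the control range (without replicate 2, 0.14, limma adjusted p = 0.394). Psph had 375, 510.2 and 372 in the knockdowns, against 355, 381 and 393 in the controls, and its groups overlapped, with a log2 fold change of 0.14 that became −0.0084 without knockdown replicate 2 and −0.0017 with total scaling.

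The remaining members of the arm did not pass and overlapped between groups. Mthfd1l, which encodes the mitochondrial synthetase that releases formate, had 336, 229.6 and 429 in the knockdowns, against 284, 393 and 383 in the controls. Aldh1l2, a mitochondrial enzyme that oxidizes formyl-folate, had 1908, 1079.8 and 2304 in the knockdowns, against 1592, 2205 and 1863 in the controls. Vldlr, a lipoprotein receptor gene induced by Atf4, had 474, 213 and 578 in the knockdowns, against 374, 624 and 652 in the controls. In each of these 3 genes knockdown replicate 2 was the lowest library and replicates 1 and 3 lay within or near the control range. Their log2 fold changes were −0.12, −0.15 and −0.46 with all libraries, and 0.12, 0.17 and −0.028 without knockdown replicate 2. Over the arm, 1 of 10 members rose and 0 fell, 5 of 10 had all knockdowns above all controls (20.5% of all genes), and the median log2 fold change was 0.50. Leaving out knockdown replicate 2, 5 rose and 0 fell, namely Asns, Psat1, Shmt2, Mthfd2 and Pck2, with a median of 0.31, where 23.8% of all genes rose and 26.1% fell.

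**Figure D2:**
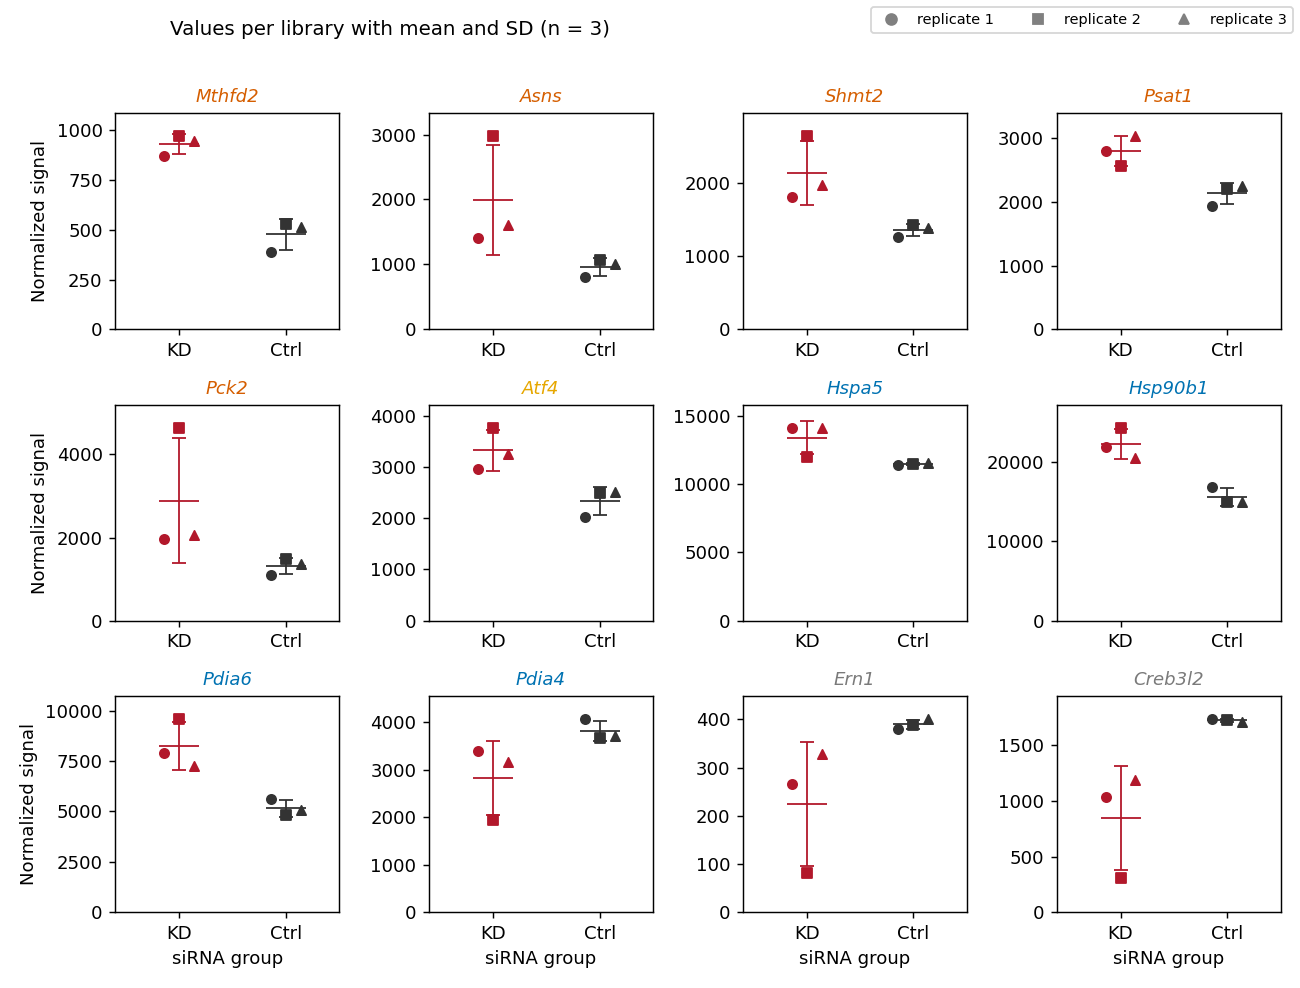
Signal of 12 genes in each library (circle, square and triangle for replicates 1, 2 and 3), with the mean (bar) and SD (whiskers) of 3 knockdown and 3 control libraries; gene names are coloured by role and each vertical axis starts at 0. The knockdown squares (replicate 2) lie far above the other knockdowns in Asns and Pck2 and far below them in Ern1 and Creb3l2, while the 3 Mthfd2 values lie together.

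Stress regulators around Atf4. No member of this group of 7 passed with all libraries, and 1 (Atf4) had an unadjusted p under 0.05. Atf4 itself had 2961, 3762 and 3251 in knockdown replicates 1, 2 and 3, against 2026, 2489 and 2504 in control replicates 1, 2 and 3. The groups did not overlap, and the knockdown mean was 1.42 times that of the controls (limma log2 fold change 0.51, SE 0.17, adjusted p = 0.172; without knockdown replicate 2, 0.41, SE 0.09, limma adjusted p = 0.00543). Ddit3, which encodes the transcription factor CHOP of prolonged stress, had 1158, 6419 and 1251 in knockdown replicates 1, 2 and 3, against 656, 849 and 843 in control replicates 1, 2 and 3. Nupr1, which encodes a small stress-induced nuclear protein, had 542, 2630.2 and 581 in knockdown replicates 1, 2 and 3, against 284, 421 and 388 in control replicates 1, 2 and 3. Both genes were modestly above the controls in knockdown replicates 1 and 3 and several times higher in replicate 2. With replicates 1 and 3 alone Ddit3 was 1.54-fold and Nupr1 1.54-fold above the controls (log2 fold changes 0.63 and 0.64, limma adjusted p = 0.00131 and 0.0101), whereas with all libraries the ratios were 3.76 and 3.43 and neither passed (limma adjusted p = 0.306 and 0.295).

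Atf3, a transcription factor gene induced early in stress, was the least abundant member, at 70.1, 46.8 and 123 in the knockdowns, against 38.5, 45.1 and 51.5 in the controls. Its value in knockdown replicate 2 rests on 11 estimated reads, the fewest of any member in a library. Knockdown replicates 1 and 3 lay above the controls and replicate 2 among them (without replicate 2, log2 fold change 1.04, SE 0.24, limma adjusted p = 0.00359). Ppp1r15a, which encodes the phosphatase subunit that reverses eIF2 phosphorylation, had 401, 344 and 524 in the knockdowns, against 326, 351 and 379 in the controls, with the same arrangement (without replicate 2, 0.38, limma adjusted p = 0.0151). Trib3, a pseudokinase gene that restrains Atf4, had 653, 1348 and 868 in the knockdowns, against 407, 734 and 813 in the controls. Chac1, which encodes an enzyme that degrades glutathione, had 361, 238 and 457 in the knockdowns, against 165, 323.2 and 282 in the controls. In Trib3 and Chac1 the groups overlapped, control replicate 1 was the lowest library, and neither passed with or without knockdown replicate 2 (limma adjusted p = 0.438 and 0.473 with it, 0.639 and 0.167 without it). All 7 regulators had positive log2 fold changes, with a median of 0.55 (Trib3 at −0.037 without knockdown replicate 2 and control replicate 1), and 5 rose and 0 fell without knockdown replicate 2 (23.8% and 26.1% of all genes).

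Promoter sequences of the Atf4 target genes are shown because several hold the composite element at which Atf4 and C/EBP factors are known to bind (CARE), searched as TGATGNAA on both strands. RefSeq windows from 250 bases before to 50 bases after the start (build GRCm38.p6) were given for 33 of the 36 members. The letters occurred in 3 of 9 genes of the Atf4 metabolic arm, in 4 of 7 stress regulators, in 0 of 4 sensor genes and in 1 of 13 chaperone genes, against 4.51% of 27025 genes with a window. Each stretch below runs 5′ to 3′ on the gene's strand, and capitals mark the match. The match in Trib3 lies after the start and is not printed.
Asns (chr6:7693213-7693244, minus strand): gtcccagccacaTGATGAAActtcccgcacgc
Pck2 (chr14:55540151-55540182, plus strand): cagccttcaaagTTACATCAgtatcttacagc
Vldlr (chr19:27216808-27216839, plus strand): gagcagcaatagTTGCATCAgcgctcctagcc
Chac1 (chr2:119351037-119351068, plus strand): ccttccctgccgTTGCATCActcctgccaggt
Atf3 (chr1:191183424-191183455, minus strand): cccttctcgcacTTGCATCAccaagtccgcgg
Nupr1 (chr7:126625561-126625592, minus strand): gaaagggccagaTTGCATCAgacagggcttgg
Herpud1 (chr8:94386305-94386336, plus strand): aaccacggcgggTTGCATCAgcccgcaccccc
All of these stretches except that of Asns read the element on the reverse strand, as TTGCATCA or TTACATCA. A match describes letters only, and in Mthfd2 these letters are not in the window. Of the 7 genes of the metabolic arm and the regulators with a match, 4 rose without knockdown replicate 2 (Asns, Pck2, Atf3 and Nupr1), and of the other 10, 6 did (23.8% of all genes). The other 10 include a gene of the metabolic arm that had no window.

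The Atf4-linked genes also differed between libraries that received the same treatment. In all 10 genes of the metabolic arm and all 7 regulators, control replicate 1 had the lowest signal of the 3 controls, which held for 31.4% of all genes tested. The median difference between control replicate 1 and the mean of control replicates 2 and 3 was −0.35 log2 units in the metabolic arm, −0.37 in the regulators, 0.13 in the chaperone arm and 0.01 over all genes. It was widest in Trib3 (−0.92), Chac1 (−0.86) and Vldlr (−0.77). Among the knockdowns, replicate 1 lay below replicate 3 in 16 of these 17 genes (46.6% of all genes), with a median of −0.16 in the metabolic arm and −0.34 in the regulators. In the chaperone arm control replicate 1 was lowest in 2 of 13 genes, and knockdown replicate 1 lay below replicate 3 in 6 of 13. For the sensors and transcription factors of the endoplasmic reticulum these counts were 3 of 6 and 6 of 6. The order of the 2 knockdowns is therefore not particular to the Atf4-linked genes. This arrangement was noticed in the data and was not tested, and the labels give no batch. Without control replicate 1 the median log2 fold change of the metabolic arm was 0.41 instead of 0.50, and that of the regulators 0.41 instead of 0.55. With both control replicate 1 and knockdown replicate 2 left out, an alternative chosen after seeing the data, Asns, Psat1, Shmt2, Mthfd2 and Pck2 rose and Vldlr fell (log2 fold change −0.28, limma adjusted p = 0.0253), and the median of the arm was 0.22.

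**Figure D3:**
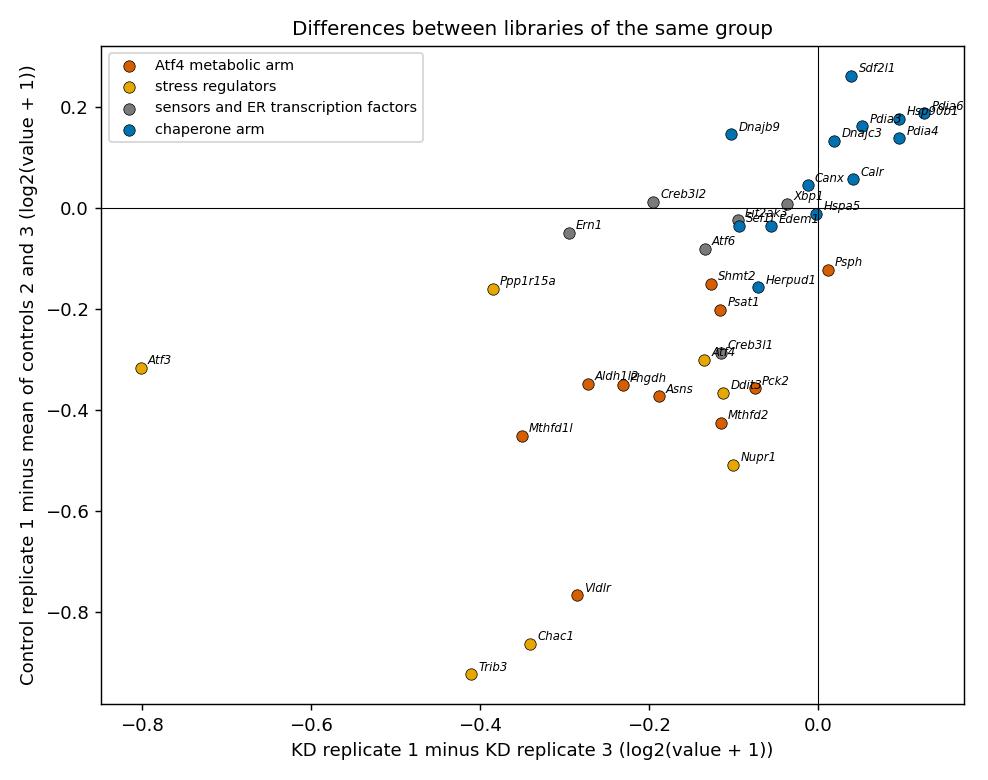
Each point is a member, coloured by role; the horizontal axis gives knockdown replicate 1 minus knockdown replicate 3 and the vertical axis control replicate 1 minus the mean of control replicates 2 and 3, both in log2(signal + 1). The genes of the Atf4 metabolic arm and the stress regulators all lie below 0 on the vertical axis, and 16 of 17 lie left of 0, as do all 6 sensor and transcription factor genes. In 2 of the 13 chaperone genes control replicate 1 is below both other controls.

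Sensors and transcription factors of the endoplasmic reticulum. None of the 6 members passed with all libraries, and 0 had an unadjusted p under 0.05. Creb3l2 encodes a membrane-bound transcription factor of the secretory pathway that is needed for cartilage matrix secretion in mice. It had 1036, 310.3 and 1186 in knockdown replicates 1, 2 and 3, against 1732, 1729 and 1706 in control replicates 1, 2 and 3. The knockdowns were all below the tightly grouped controls, and replicate 2 was lowest (limma log2 fold change −1.25, SE 0.52, adjusted p = 0.257). Without that library Creb3l2 fell (log2 fold change −0.64, SE 0.06, limma adjusted p = 5.80e-06). Ern1 had 267, 80.8 and 328 in knockdown replicates 1, 2 and 3, against 381, 388 and 400.2 in control replicates 1, 2 and 3, again all below the controls, and it fell without knockdown replicate 2 as well (log2 fold change −0.40, SE 0.09, limma adjusted p = 0.00409). With all libraries Ern1 did not pass (limma adjusted p = 0.34).

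Eif2ak3, the gene of PERK, had 561, 123 and 599 in the knockdowns, against 608, 631 and 605 in the controls. Its knockdowns lay below all controls, but replicates 1 and 3 by little, and without replicate 2 the log2 fold change was −0.085 (SE 0.07, limma adjusted p = 0.307). Atf6 had 707, 412 and 775 in the knockdowns, against 764, 834 and 781 in the controls, with overlapping groups (without knockdown replicate 2, −0.10, limma adjusted p = 0.247). Xbp1 had 1074, 769 and 1102 in the knockdowns, against 813, 772 and 847 in the controls. Creb3l1, which encodes a relative of Creb3l2 that is known to promote collagen expression in bone, had 964, 502 and 1044 in the knockdowns, against 616, 732 and 772 in the controls. In Xbp1 and Creb3l1 knockdown replicates 1 and 3 lay above all controls and replicate 2 lay below them, in Xbp1 by little, so the groups overlapped. Without replicate 2 Xbp1 and Creb3l1 rose (log2 fold changes 0.43 and 0.51, limma adjusted p = 0.000117 and 0.00075). Creb3l1 and Creb3l2 thus lay on opposite sides of the controls in knockdown replicates 1 and 3. In all 6 genes of this group knockdown replicate 2 was the lowest knockdown, which held for 51.2% of all genes.

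Chaperone arm. None of its 13 genes passed with all libraries, and 2 had an unadjusted p under 0.05 (Hsp90b1 and Pdia6). In 5 genes all knockdowns lay above all controls and in 1 gene below (20.5% and 23.7% of all genes). Pdia6, which encodes a protein disulfide isomerase, had 7917, 9571 and 7254 in knockdown replicates 1, 2 and 3, against 5612, 4803 and 5052 in control replicates 1, 2 and 3. All knockdowns exceeded all controls, 1.60 times on average (limma log2 fold change 0.67, SE 0.18, adjusted p = 0.105; without knockdown replicate 2, 0.56, SE 0.07, limma adjusted p = 5.12e-05). Hsp90b1, the gene of the chaperone GRP94, had 21961, 24323 and 20548 in knockdown replicates 1, 2 and 3, against 16874, 14929 and 14928 in control replicates 1, 2 and 3. Its groups did not overlap either, and the 3 knockdowns were close to each other (limma log2 fold change 0.52, SE 0.18, adjusted p = 0.19; without knockdown replicate 2, 0.45, SE 0.07, limma adjusted p = 0.000189). With the correction for transcript length both passed (limma adjusted p = 0.0314 for Pdia6 and 0.0415 for Hsp90b1).

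Hspa5 encodes BiP, the central chaperone of the endoplasmic reticulum and a common readout of the unfolded protein response. It had 14104, 11997 and 14126 in knockdown replicates 1, 2 and 3, against 11441, 11494 and 11566 in control replicates 1, 2 and 3. All knockdowns were above the narrow control range, replicate 2 least, and the difference was small, with a ratio of 1.17 (limma log2 fold change 0.22, SE 0.17, adjusted p = 0.472; without knockdown replicate 2, 0.30, SE 0.05, limma adjusted p = 0.000564). Calr and Canx encode the lectin chaperones calreticulin and calnexin. Calr had 20332, 47687 and 19749 in the knockdowns, against 18242, 17508 and 17555 in the controls, all above the controls but far higher in replicate 2 (without it, 0.17, limma adjusted p = 0.0214). Canx had 9134, 5633 and 9212 in the knockdowns, against 8691, 8494 and 8354 in the controls, where replicate 2 was the lowest library and the groups overlapped (without it, 0.11, limma adjusted p = 0.106). Sdf2l1, which encodes a partner of BiP, had 448, 510.2 and 436 in the knockdowns, against 427, 349 and 364 in the controls, with no overlap, and did not pass with or without replicate 2 (limma adjusted p = 0.355 and 0.0619).

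The 3 disulfide isomerase members lay on different sides of the controls. Whereas Pdia6 was above them under all 18 alternatives, Pdia4 was below them under all 18. Pdia4 had 3389.6, 1940.3 and 3171 in knockdown replicates 1, 2 and 3, against 4063, 3677 and 3708 in control replicates 1, 2 and 3. All its knockdowns were below all controls (limma log2 fold change −0.47, SE 0.25, adjusted p = 0.34), and it fell without knockdown replicate 2 (−0.22, SE 0.06, limma adjusted p = 0.00953). Pdia3 had 10524, 17444 and 10148 in the knockdowns, against 11833, 10396 and 10764 in the controls. Its replicates 1 and 3 lay at the low end of the controls and replicate 2 far above them (without replicate 2, −0.088, limma adjusted p = 0.278), and its log2 fold change of 0.16 became −0.015 with quantile normalization.

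The co-chaperone and degradation genes overlapped between groups. The BiP co-chaperone genes Dnajb9 and Dnajc3 had 328, 128 and 352 in the knockdowns, against 365, 309 and 351 in the controls (Dnajb9) and 2297, 1773 and 2266 in the knockdowns, against 2048, 1859 and 1876 in the controls (Dnajc3). Among genes of the degradation pathway, Herpud1 had 1066, 876 and 1119.7 in the knockdowns, against 823, 929.6 and 907 in the controls. Edem1, which encodes a lectin that hands misfolded glycoproteins to degradation, had 1500.1, 952 and 1559 in the knockdowns, against 1228, 1306 and 1214 in the controls. Sel1l, the adaptor of the degradation ligase, had 2701, 1462 and 2883 in the knockdowns, against 2688, 2824 and 2685 in the controls. In these 5 genes knockdown replicate 2 was the lowest knockdown. Without it Dnajc3, Herpud1 and Edem1 rose by 0.24, 0.30 and 0.29 on the log2 scale (limma adjusted p = 0.00345, 0.00231 and 0.00102), while Dnajb9 and Sel1l stood at −0.0041 and 0.031 and did not pass. With all libraries the log2 fold changes of Dnajc3 and Edem1 were 0.12 and 0.064, and with total scaling they were −0.020 and −0.078. Over the arm the median log2 fold change was 0.16 with all libraries, 0.02 with total scaling (where the median of all genes moved to −0.14) and 0.22 without knockdown replicate 2, where 7 genes rose and 1 fell (23.8% and 26.1% of all genes).

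Promoter stretches of 6 chaperone genes are shown because they hold the endoplasmic reticulum stress element (ERSE), at which Atf6 and Xbp1 are known to act together with NF-Y. It was searched as CCAAT followed by any 9 bases and CCACG on both strands of the same RefSeq windows (GRCm38.p6). The letters were found in 6 of 13 chaperone genes and in 0 of the other 20 members with a window, against 0.137% of 27025 genes (37 genes). The 250 bases before the start of Hspa5 are given, and for the others the match with 12 bases on each side (in Hsp90b1 the stretch spans 2 matches), 5′ to 3′ on the gene's strand with the element in capitals.
Hspa5 (chr2:34771840-34772089, plus strand): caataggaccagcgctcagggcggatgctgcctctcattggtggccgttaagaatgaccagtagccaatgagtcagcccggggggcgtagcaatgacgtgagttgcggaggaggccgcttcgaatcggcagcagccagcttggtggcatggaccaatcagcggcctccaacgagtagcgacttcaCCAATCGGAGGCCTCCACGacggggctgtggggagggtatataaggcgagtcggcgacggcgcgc
Hsp90b1 (chr10:86705521-86705668, minus strand): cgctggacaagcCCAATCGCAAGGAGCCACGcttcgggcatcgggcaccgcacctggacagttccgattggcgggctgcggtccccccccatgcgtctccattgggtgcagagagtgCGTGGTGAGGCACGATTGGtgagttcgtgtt
Pdia6 (chr12:17266479-17266521, plus strand): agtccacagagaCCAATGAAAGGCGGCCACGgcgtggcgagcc
Canx (chr11:50325788-50325830, minus strand): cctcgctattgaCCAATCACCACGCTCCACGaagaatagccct
Dnajc3 (chr14:118937815-118937857, plus strand): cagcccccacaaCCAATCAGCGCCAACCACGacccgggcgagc
Calr (chr8:84847063-84847105, minus strand): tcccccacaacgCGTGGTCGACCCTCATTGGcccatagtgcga
In Calr, and in the downstream match of Hsp90b1, the element lies on the reverse strand. The 6 chaperone genes with the element had log2 fold changes from −0.13 (Canx) to 0.67 (Pdia6) with all libraries and from 0.11 (Canx) to 0.56 (Pdia6) without knockdown replicate 2, where 5 of the 6 rose (23.8% of all genes). The 7 without a match ranged from −0.47 (Dnajb9) to 0.29 (Sdf2l1) and from −0.22 (Pdia4) to 0.30 (Herpud1). Of these 7, 2 rose without that library (Herpud1 and Edem1), near the share of all genes. Only the exact letters were searched, so variants of the element would be missed. None of these 13 genes passed with all libraries. Passing also depends on the standard error: without knockdown replicate 2 Calr passed at 0.17 (SE 0.06), while Sdf2l1, which had no match, did not at 0.22 (SE 0.09). The windows of the 33 members held a median of 23 CpG dinucleotides, against 8 over all genes with a window. These sets are unlike, because the members all passed the filter on signal and the genes with a window were not filtered. These counts are descriptions of the windows with no test.

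**Figure D4:**
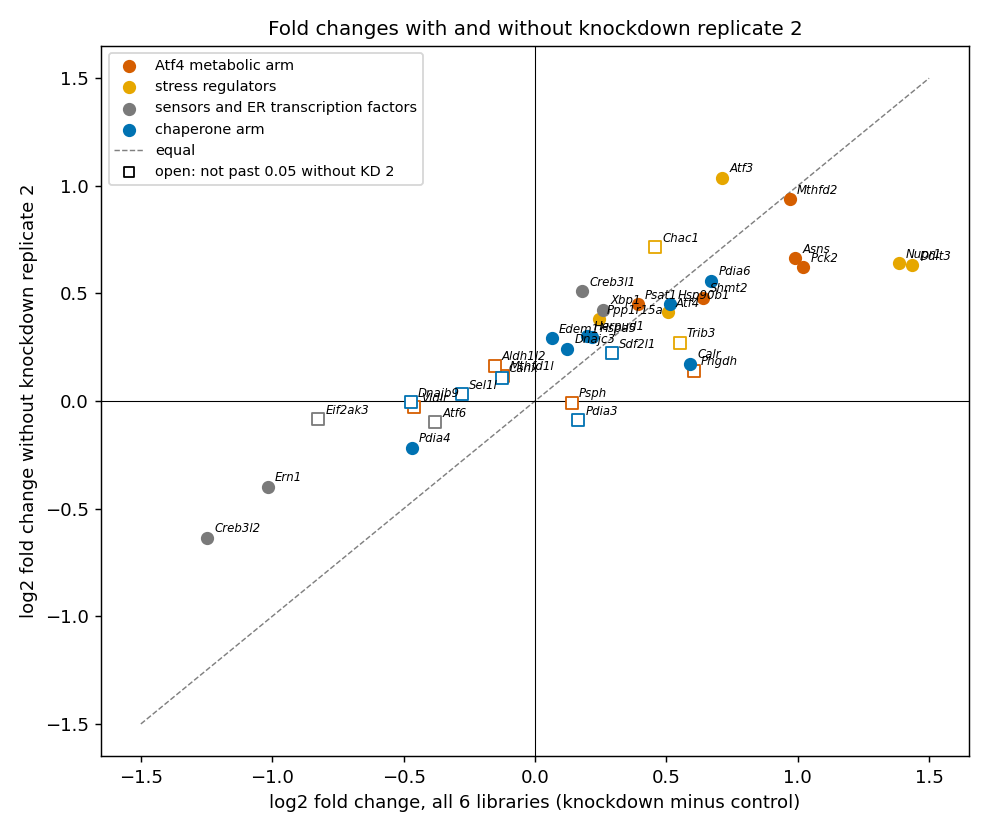
Log2 fold change (knockdown minus control) of the 36 members with all 6 libraries (horizontal axis) and without knockdown replicate 2 (vertical axis), coloured by role; filled circles passed limma at an adjusted p of 0.05 without that library and open squares did not. Ddit3 and Nupr1 lie furthest right of the line of equal values, and Creb3l2 and Ern1 are lowest in both fits.

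Knockdown replicate 2 and transcript length moved together across the members. Relative to the mean of knockdown replicates 1 and 3, this library was higher by 2.41 log2 units in Ddit3 and by 2.23 in Nupr1, whose longest coding transcripts are 890 and 829 nt (GENCODE M21). It was lower, at −2.22, −1.86 and −1.83, in Eif2ak3, Ern1 and Creb3l2, whose transcripts are 4513, 6946 and 7082 nt long. Spearman's rho between length and this difference was −0.597 over the 36 members and −0.614 over 11950 tested genes with a length. Genes are not independent replicates, and all points share the same 3 libraries, so these values are descriptions. Pck2 departs from the trend, with a longest coding transcript of 4625 nt and a difference of 1.20. Which of its transcripts the cells express was not determined. Knockdown replicate 2 lay outside the range of the other knockdowns in all 36 members, above in 15 and below in 21, and over all genes it lay above in 44.7% and below in 51.2%. With each library corrected for its trend with length, 4 members rose and 0 fell (Mthfd2, Shmt2, Hsp90b1 and Pdia6), where 11.2% of all genes were called (6.74% higher, 4.44% lower), and Ddit3 and Nupr1 stood at 0.86 and 0.79 (limma adjusted p = 0.0655 and 0.0647). The part of RNA quality or library preparation in this library was not tested.

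**Figure D5:**
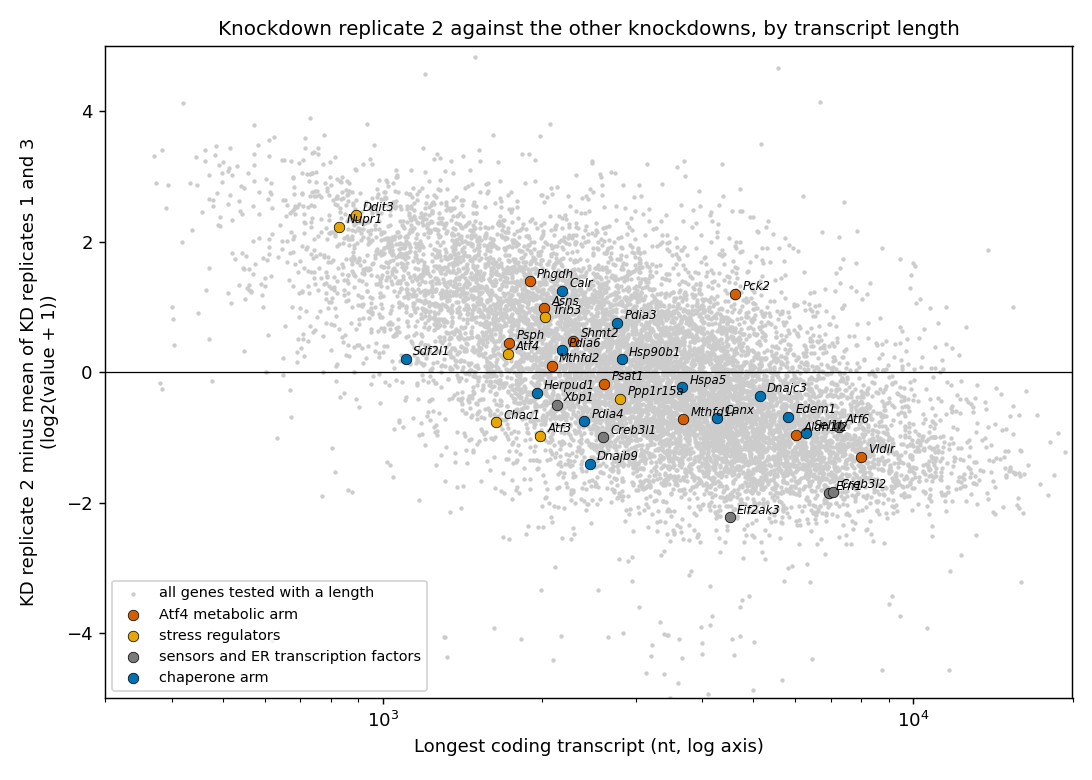
Difference between knockdown replicate 2 and the mean of knockdown replicates 1 and 3 in log2(signal + 1) (vertical axis) against the longest coding transcript in nt (log axis), for the 36 members (coloured by role) and all tested genes with a length (grey; 23 of 11950 lie outside the plotted range). Short transcripts such as Ddit3 and Nupr1 are higher in replicate 2, and long ones such as Ern1 and Creb3l2 are lower.

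Other genes of the pathways, from lists of gene names, gave few calls. Of 39 further genes of the Atf4 branch, 36 were tested and 0 rose and 0 fell with all libraries (6 at an unadjusted p under 0.05 in limma, against 20.5% of all genes), with a median log2 fold change of 0.07, or −0.07 with total scaling. Those with the smallest adjusted p were Cbs, Ddit4, Cth and Slc1a4. Cth and Cbs encode the enzymes of cysteine synthesis from homocysteine. Cth had 109, 89.3 and 129 in the knockdowns, against 42.5, 55.1 and 78.6 in the controls, and Cbs had 12.4, 34.01 and 9.95 in the knockdowns, against 2.07, 5.01 and 2.71 in the controls, where control replicate 2 was under the floor of 3 reads. In Cth and Cbs all knockdowns were above all controls (limma adjusted p = 0.154 and 0.109). Cbs is in the authors' deposited table of differential genes, with a fold change of 5.86 there, while none of the 36 members is (0 of 36). The name of that table points to a cut on fold change above the largest ratio of any member, 3.76 for Ddit3. The absence of the members from it therefore follows from the cut and says little about them. Slc1a4, a neutral amino acid transporter gene, had 1195, 820.5 and 1262 in the knockdowns, against 651, 769 and 689 in the controls, and Ddit4, a stress-induced inhibitor of mTOR signalling, had 1107, 493 and 1012 in the knockdowns, against 1815, 1641 and 1673 in the controls. Ddit4 was thus below the controls in every knockdown, against the direction of the other 3 (limma adjusted p = 0.182 for Slc1a4 and 0.152 for Ddit4). Slc1a4 and Ddit4 passed without knockdown replicate 2 (limma adjusted p = 3.25e-06 and 3.28e-06), as did Cth (0.00304), while Cbs was then below the filter. When knockdown replicate 2 was left out, 14 of 35 rose and 5 fell (23.8% and 26.1% of all genes).

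Of the 12 cytoplasmic aminoacyl-tRNA synthetase genes in that list, which charge tRNAs with amino acids and are common targets of Atf4, 0 passed with all libraries and 6 had all knockdowns above all controls (20.5% of all genes). With knockdown replicate 2 left out, 7 rose and 0 fell (23.8% and 26.1% of all genes). The 5 genes of the list that fell in that fit all lie outside this subset (Ddit4, Cebpg, Slc38a2, Slc1a5 and Eif2ak1). This subset was not planned as a count of its own. In all 12, as in the Atf4 genes above, control replicate 1 was the lowest control (31.4% of all genes). Gdf15, a secreted stress signal named after its values were seen, had 15.3, 12.8 and 16.3 in the knockdowns, against 1.81, 0 and 4.52 in the controls and was below the filter.

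Of 47 further genes of the endoplasmic reticulum branch, 45 were in the table and 42 were tested, of which Pdia5 and Wfs1 rose and 0 fell, with a median log2 fold change of 0.12, or −0.03 with total scaling. These 2 calls among 42 are about the share of all genes (4.98%, with 3.2% higher and 1.78% lower). Pdia5, which encodes a disulfide isomerase that acts on Atf6, had 736, 731 and 669 in knockdown replicates 1, 2 and 3, against 373, 348 and 360.4 in control replicates 1, 2 and 3. The 3 knockdowns were close to each other and lay well above the controls, 1.97 times their mean (limma log2 fold change 0.98, SE 0.14, adjusted p = 0.0199). Wfs1, which encodes wolframin, a membrane protein that restrains Atf6, had 680.3, 599.6 and 654 in knockdown replicates 1, 2 and 3, against 407, 368 and 399 in control replicates 1, 2 and 3 (limma log2 fold change 0.72, SE 0.14, adjusted p = 0.0482), with no overlap. Both remained higher without knockdown replicate 2 (limma adjusted p = 8.81e-07 and 4.46e-06), and both calls were lost with total scaling (limma adjusted p = 0.126 for Pdia5 and 0.35 for Wfs1), with the replicate block (0.15 and 0.22) and when any other library was left out (0.0769 to 0.158 for Pdia5 and 0.148 to 0.255 for Wfs1). Pdia5 also missed the threshold with the length correction (0.0737), and Wfs1 with no filter (0.0628) or a mean of at least 50 (0.0505). Among all 42, with knockdown replicate 2 left out, 17 rose and 7 fell, where 23.8% of all genes rose and 26.1% fell.

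Levels between genes were compared per length, as mean control signal per kilobase of the longest coding transcript. The most abundant members belonged to the chaperone arm. Calr led at 8136, followed by Hsp90b1 at 5514, Pdia3 at 3970.2, Hspa5 at 3132, Pdia6 at 2370.5, Canx at 1989 and Pdia4 at 1591 signal per kilobase. The other genes of that arm were lower, from Dnajb9 at 139 to Herpud1 at 454. Atf4, at 1356, led the genes outside this arm, followed by Phgdh at 1115. Ern1 at 56.1 and Atf3 at 22.7 signal per kilobase were the lowest. Mthfd2, the member called with all libraries, lay below most members, at 229 signal per kilobase.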

How the data were processed

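The authors deposited a normalized signal for each of 20325 genes and 6 libraries, which the file names call median-normalized. It was read here as estimated read counts divided by a size factor per library. Bowtie 1.0.0, RSEM 1.2.12 and build mm9 were used, per the submitters' processing notes. The sources used here name neither the annotation nor the strand setting, so overlapping or antisense genes and near-identical copies cannot be told apart. The fold change quoted for Cbs is the ratio in the authors' deposited table. The most frequent lowest value of a library was taken as 1 read; 88.3 to 90.5% of values up to 20 reads were whole multiples of it within 0.1 read, too few for a test on counts. A floor of 3 reads covers counting error alone.

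Testing used genes with a mean signal of at least 10 and limma 3.58.1 in R 4.3.3 on log2(signal + 1), which understates changes of low genes, as knockdown minus control, two-sided, with trend and robust options and Benjamini-Hochberg adjustment over all genes tested; standard errors are moderated. An exact permutation test of 3 against 3 samples cannot go below p = 0.1. The fit was tested on simulated counts with no deviating library and no trend with length, so that test does not cover knockdown replicate 2. Lengths are those of the longest coding transcript in the GENCODE M21 basic set, and promoter windows are RefSeq's; both come from a newer build than mm9 and no coordinates of the files were used. The members and lists were chosen with earlier results of these data known. All 36 members are named, with Ring1 and Rnf2, further pathway genes that passed, and the 4 with the smallest adjusted p in the list where none did. Alternatives covered pseudocount, filter, scaling, library weights, spread estimate, replicate block, transcript length and each library left out. The labels give no batch.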

Additional observations from a re-analysis of the deposited data

How the results depend on the processing

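With the main settings limma called 602 of all genes, 1 member (Mthfd2), 1 gene of the Atf4 metabolic arm, 0 stress regulators, 0 sensor genes, 0 chaperone genes, 0 further Atf4 genes and 2 further endoplasmic reticulum genes; the values below follow this order. Leaving out each library in turn gave 0 to 5991, 0 to 22, 0 to 5, 0 to 5, 0 to 4, 0 to 8, 0 to 19 and 0 to 24, with every highest value from the fit without knockdown replicate 2; without control replicate 1, 2 or 3 limma called 0 genes (1495, 1529 and 1475 at an unadjusted p under 0.05). Whether the numbers shared between groups pair samples was not settled. Same-numbered deviations from the group mean correlated at 0.17, −0.05 and −0.05 across genes. Of the knockdowns, only replicate 1 correlated best with the control of its own number. Knockdown replicate 2 enters the group mean behind these deviations, so the correlations cannot decide the question. With the replicate block 0 genes were called in all 8 counts (1866 of all genes at an unadjusted p under 0.05). Total scaling gave 302, 0, 0, 0, 0, 0, 0 and 0. Library weights, whose estimate stopped short of its convergence tolerance, gave 8810, 27, 5, 6, 6, 10, 28 and 33. The length correction gave 1335, 4, 2, 0, 0, 2, 1 and 2. Without knockdown replicate 2 and control replicate 1, added after seeing the data, the counts were 5567, 25, 6, 6, 4, 9, 20 and 23. With no filter, or a mean of at least 50, 1 further endoplasmic reticulum gene was called. Pseudocounts, upper-quartile scaling, quantile normalization and the plain spread estimate kept all 8 counts within 1.5 times. The cause of these shifts was not tested.

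The log2 fold changes of 36 members and 2 targeted genes under 18 alternatives gave 684 values, of which 31 reversed, none of a gene called with the main settings. With 1 library, or knockdown replicate 2 and control replicate 1, left out, Psph ranged from −0.049 to 0.22, Mthfd1l from −0.33 to 0.12, Aldh1l2 from −0.38 to 0.17, Trib3 from −0.037 to 0.79, Creb3l1 from −0.017 to 0.51, Dnajb9 from −0.73 to 0.045, Pdia3 from −0.088 to 0.30, Canx from −0.25 to 0.12, Sel1l from −0.46 to 0.031 and Edem1 from −0.063 to 0.29. With the length correction Psph was −0.14, Aldh1l2 0.17, Atf6 0.0060, Sdf2l1 −0.20, Canx 0.039, Herpud1 −0.018 and Sel1l 0.061. With library weights Psph was −0.0064, Aldh1l2 0.057, Pdia3 −0.068 and Canx 0.10. With total scaling Psph was −0.0017, Dnajc3 −0.020 and Edem1 −0.078, and with quantile normalization Pdia3 was −0.015.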
